A study of Mus musculus with 12 samples.

Results

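Vascular cells were followed here through 33 marker genes in microarrays of mouse brain microglia, the resident macrophages of the brain. The genes were chosen by symbol, with earlier results of these data known. Shares of these genes set against all genes below therefore describe the list and are not an independent test of it. They comprise 21 genes of endothelial cells, which line the vessels, and 12 genes of mural cells, the pericytes and smooth muscle cells wrapped around them. The 33 genes are part of the 23575 genes with a name on either of the array designs used. Each gene was taken as its brightest probe on a design. The study measured gene expression in microglia of male mice aged 8 weeks, enriched by magnetic sorting for CX3CR1, a chemokine receptor of microglia, both before and after tMCAO (transient occlusion of the middle cerebral artery), a model of stroke in which an artery of the brain is blocked for a time and then reopened. Its 6 groups of 2 arrays were ZEB1-overexpression after tMCAO, ZEB1-knock down after tMCAO, ZEB1-overexpression before tMCAO, ZEB1-knock down before tMCAO, wild type after tMCAO and wild type before tMCAO. ZEB1 is a zinc finger transcription factor known mainly as a repressor. The labels do not say which cells carried the overexpression or the knock-down, how long after tMCAO the cells were taken, or whether replicates came from separate mice, so the p-values below reflect the spread among these samples alone, and that spread may be technical.

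The blood vessels of the brain form the blood-brain barrier. Its endothelial cells are sealed to each other by tight and adherens junctions, carry nutrient and efflux transporters, and depend on the vascular endothelial growth factor and angiopoietin receptors. Pericytes share a basement membrane with the endothelium, while smooth muscle cells of larger vessels contain a contractile apparatus. Resting microglia are not known as a main source of most of these transcripts. In sorted cells of this kind, fewer vascular cells and less vascular RNA per cell cannot be told apart.

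Promoters are shown for 5 genes. Tie1, Cldn5 and Des were called in both comparisons after tMCAO described below when every spot was kept, and Eng and Robo4 stand beside them as further endothelial receptors whose windows hold the motif described here. Robo4 was called in no comparison. They are RefSeq sequences of build GRCm38.p6 covering the 250 bases before the annotated start, printed 5′ to 3′ on the gene's own strand. Capitals mark AGGAAG or its reverse complement CTTCCT, a core bound by ETS factors such as Erg and Fli1, which are regulators of endothelial genes. Tie1 and Eng encode endothelial receptors and Robo4 a guidance receptor of the endothelium, and each holds the core. Endothelial receptors as a class do not. Among those not shown, Flt1 holds 2 matches, while Kdr and Tek hold none. Cldn5, the main claudin of brain endothelium, and Des, an intermediate filament of muscle and pericytes, hold none in this window. The windows lie at chr4:118489850-118490099 on the minus strand for Tie1, chr9:37401722-37401971 on the plus strand for Robo4, chr2:32646345-32646594 on the plus strand for Eng, chr16:18776597-18776846 on the plus strand for Cldn5 and chr1:75360042-75360291 on the plus strand for Des.
Tie1: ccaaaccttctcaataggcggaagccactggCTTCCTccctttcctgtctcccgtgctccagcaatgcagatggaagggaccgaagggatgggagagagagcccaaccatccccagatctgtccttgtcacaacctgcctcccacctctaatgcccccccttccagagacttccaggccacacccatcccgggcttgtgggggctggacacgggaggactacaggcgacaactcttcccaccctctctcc
Robo4: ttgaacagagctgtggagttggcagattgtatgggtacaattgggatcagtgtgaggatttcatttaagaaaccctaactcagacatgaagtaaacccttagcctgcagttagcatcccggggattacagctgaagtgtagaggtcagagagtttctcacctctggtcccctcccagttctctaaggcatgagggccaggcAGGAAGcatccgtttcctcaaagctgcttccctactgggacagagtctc
Eng: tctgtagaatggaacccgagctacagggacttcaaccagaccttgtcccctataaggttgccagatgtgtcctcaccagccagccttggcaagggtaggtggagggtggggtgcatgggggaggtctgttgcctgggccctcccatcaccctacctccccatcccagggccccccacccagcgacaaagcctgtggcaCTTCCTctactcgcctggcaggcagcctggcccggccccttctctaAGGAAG
Cldn5: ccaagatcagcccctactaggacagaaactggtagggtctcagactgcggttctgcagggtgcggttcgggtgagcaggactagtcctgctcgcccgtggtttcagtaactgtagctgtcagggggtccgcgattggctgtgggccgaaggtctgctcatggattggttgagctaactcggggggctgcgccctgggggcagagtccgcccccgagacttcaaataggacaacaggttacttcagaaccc
Des: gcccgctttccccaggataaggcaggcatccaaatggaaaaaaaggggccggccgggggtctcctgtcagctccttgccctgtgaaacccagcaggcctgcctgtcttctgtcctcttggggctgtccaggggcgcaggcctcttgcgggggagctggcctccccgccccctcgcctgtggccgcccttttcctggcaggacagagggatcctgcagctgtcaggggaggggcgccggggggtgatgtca

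In Tie1 the match began 219 bases before the start, in Robo4 49 bases, and in Eng 52 and 6 bases. Of the 33 genes, 24 matched the promoter table, with 30 promoters between them. The ETS core, searched on both strands, stood in the promoters of 10 of 15 endothelial genes and of 0 of 9 mural genes. Counted by promoter, 11 of 21 endothelial promoters held it (52.4%), against 29.5% of all 32851 promoters. CACCTG with its reverse complement CAGGTG, the E-box that ZEB1 is known to bind, stood in 4 of 30 member promoters (13.3%), against 17.2% of all promoters. The CArG box, bound by serum response factor in smooth muscle genes, was searched only in its strict form (CC, then 6 bases of A or T, then GG) and stood in 0 of 30, against 1.47% of all promoters. Forms with a mismatch were not counted. These are letter matches in a fixed window and give no evidence of binding.

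The wild type and ZEB1-overexpression arrays after tMCAO lay on 1 slide, called the 4-array slide after the number of its arrays in this series. The other 4 groups lay on a slide of another design, called the 8-array slide in the same way. Pairs of groups were therefore tested only within the same slide, and for any other pair slide and group cannot be told apart. The interaction described last is the exception, since it used the arrays of both slides. A level is the log2 signal of a probe minus the array's 75th percentile, so negative levels lie below that percentile. The percentile was an intensity of 1078 to 1515 on the 4-array slide and of 2566 to 3702 on the 8-array slide. Levels of different probes are not compared. Between 60.4% and 73.9% of spots per array were well above background. On the 4-array slide, wild type lay in the first row and overexpression in the second. On the 8-array slide, knock-down after tMCAO lay in row 1, columns 1 and 2, and wild type before tMCAO in row 1, columns 3 and 4. Overexpression before tMCAO lay in row 2, columns 1 and 2, and knock-down before tMCAO in row 2, columns 3 and 4. Position and group therefore cannot be told apart for any pair compared, also before tMCAO. Spots marked by the scanner software made up 18.2% to 23.7% of an array in columns 1 and 2 of this slide, against 1.03% to 3.28% in columns 3 and 4.

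Zeb1 was not called in any comparison. Its probe on the 4-array slide had levels of -0.08 and 0.56 on the arrays labelled overexpression after tMCAO, against 0.12 and 0.41 on the wild type arrays after tMCAO. Its brightest probe on the 8-array slide had levels of -0.66 and -0.67 in knock-down after tMCAO, -0.28 and -0.36 in overexpression before tMCAO, -0.11 and -0.79 in knock-down before tMCAO, and -0.57 and -0.59 in wild type before tMCAO. With all spots kept, limma gave differences of -0.02 for overexpression against wild type after tMCAO (adjusted p = 0.974) and 0.13 for knock-down against wild type before it (adjusted p = 0.984). Both overexpression arrays before tMCAO lay above both wild type arrays on this probe, with a difference of 0.26 ± 0.23 (adjusted p = 0.771). Where these probes lie relative to the transgene or to the sequence targeted by the knock-down is not stated in the labels, so the genotype names below are those of the labels and were not checked by this gene.

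All 33 genes had a probe on both designs, 38 probes on the 4-array slide and 39 on the 8-array slide, and 22 genes were read by the same probe on both. On the 4-array slide all 33 genes passed the filter, which requires a probe to be well above background on both arrays of some group, and on the 8-array slide 32 did. Erg, an ETS factor of endothelial cells, was the gene that failed, with levels of -5.33 to -7.30 on that slide. Microglia markers were well above background for 13 of 13 genes on every array. The same held for 10 of 10 neuron, 9 of 9 astrocyte and 10 of 10 oligodendrocyte markers, so this criterion does not set the labelled cell type apart from other brain cells. The mean microglia level was 3.11 to 3.19 on the 4-array slide and 0.71 to 1.84 on the 8-array slide. On the 8-array slide the mean was 2.17 to 2.63 for neuron, 2.32 to 2.73 for astrocyte and 1.52 to 2.13 for oligodendrocyte markers, each above the microglia mean on every array. On the 4-array slide these means were 1.03 to 1.70, 2.14 to 2.21 and 0.73 to 1.41. The lists use different probes, so their levels do not give the share of each cell type. The mean endothelial level was -0.52 and -0.74 in overexpression and 0.30 and 0.09 in wild type after tMCAO, and all but 1 gene on the 4-array slide and 2 on the 8-array slide were well above background on every array.

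The scanner software marked a share of spots as non-uniform or outlying, and these marks were uneven. Of the 66 member values per group, 12 were marked in overexpression after tMCAO, against 28 in wild type after tMCAO. They numbered 18 in knock-down after tMCAO and 14 in overexpression before it, against 2 in knock-down before tMCAO and 0 in wild type before tMCAO. The main tests leave marked spots out, which removes some of the brightest vascular genes, and a repeat that keeps every spot is given beside them. Values per array below are those with every spot kept. A gene was called at a limma adjusted p under 0.05, adjusted over all genes of the slide. For the interaction the adjustment was over the genes on probes that both slides share.

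The first comparison asks how vascular transcripts in ZEB1-overexpression microglia differed from those in wild type microglia after tMCAO. Myh11, the smooth muscle myosin heavy chain, fell in overexpression, and it was the 1 gene called of 22 members tested, against 0.748% of all 22072 genes called lower. With every spot kept, 5 of 33 members fell, against 1.25% of all 27935 genes. They were Tie1 and Cldn5 of the endothelium and Myh11, Des and Acta2 of the contractile apparatus. No member rose in either fit, against 1.59% of all genes with marked spots left out and 1.95% with every spot kept. Differences were below 0 for 22 of 22 members tested with marked spots left out, with a median of -0.86, against 58% of all genes and a median of -0.11.

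Of the junction proteins of the endothelium, Cldn5 and Cdh5 stood apart from the others. Cldn5, the claudin that seals brain endothelial tight junctions, had levels of 1.05 and 1.49 in overexpression, against 2.69 and 2.89 in wild type. The groups did not overlap. Cldn5 was, with all spots kept, 2.86-fold lower (log2 difference -1.52 ± 0.26 SE, adjusted p = 0.0332), but both its wild type spots were marked, so the fit without marked spots gave no value. Cdh5, the adherens junction cadherin, had levels of -3.76 and -3.27 in overexpression, against -2.18 and -2.33 in wild type, with no spot marked. Its difference of -1.26 ± 0.27 missed the threshold (adjusted p = 0.0644, and 0.0533 with all spots kept). Esam, an adhesion molecule of the same junctions, had levels of 0.55 and -0.08 in overexpression, against 0.58 and 0.99 in wild type, a difference of -0.55 ± 0.30 (adjusted p = 0.32). Pecam1, an adhesion molecule shared with leukocytes, overlapped between the groups, with -3.37 and -2.40 in overexpression against -2.18 and -2.55 in wild type. Ocln, the tight junction protein occludin, overlapped as well, with a difference of -0.20 and a 95% interval of -0.92 to 0.52.

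Among endothelial receptors, Tie1, an orphan receptor of the angiopoietin pathway, stood furthest apart. Its levels were -2.49 and -3.03 in overexpression, against -0.59 and -0.70 in wild type, a 4.32-fold lower signal with all spots kept (-2.11 ± 0.26, adjusted p = 0.0136). Both wild type spots were marked. Tek, the angiopoietin receptor Tie2, had levels of -6.97 and -6.03 in overexpression, against -5.10 and -4.67 in wild type. Its difference was -1.61 ± 0.36 (adjusted p = 0.0715), and the first overexpression array was not well above background, the single such value among members on this slide. The receptors of vascular endothelial growth factor differed less. Flt1 had levels of 2.14 and 1.88 in overexpression, against 2.59 and 2.65 in wild type (-0.61 ± 0.23 with all spots kept, adjusted p = 0.187). Kdr overlapped entirely, with 0.55 and 1.03 in overexpression against 0.71 and 0.86 in wild type. The interval of its difference was -0.66 to 0.65. Robo4 (0.95 and 0.32 in overexpression, 1.78 and 1.35 in wild type) and Eng, a coreceptor for transforming growth factor beta (0.06 and 0.42 in overexpression, 1.11 and 0.53 in wild type), were lower on both overexpression arrays without passing the test. The transcription factors Erg, Sox17 and Sox18, which act in endothelial identity and arterial fate, were also lower on both arrays, with differences of -0.85, -1.09 and -1.51 with all spots kept (adjusted p = 0.184, 0.0771 and 0.103).

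Of the barrier transporters, 2 overlapped between the groups and 1 did not. Slc2a1, the glucose transporter GLUT1, had levels of 2.92 and 2.72 in overexpression, against 2.91 and 3.09 in wild type. Slco1a4, an organic anion transporter, had 0.09 and -0.62 in overexpression, against 0.44 and -0.33 in wild type. The groups overlapped for both transporters, and their differences with all spots kept had intervals of -0.72 to 0.38 and -1.17 to 0.52. Abcb1a, the P-glycoprotein efflux pump, had levels of 0.02 and -0.11 in overexpression, against 1.32 and 0.51 in wild type, lower on both arrays but short of the threshold (-0.96 ± 0.31, adjusted p = 0.137). Of the remaining endothelial genes, Vwf, the carrier of clotting factor VIII, had levels of 3.06 and 2.35 in overexpression, against 3.75 and 3.65 in wild type (-1.05 ± 0.40 with 1 wild type array, adjusted p = 0.209). Emcn, a sialomucin of capillaries and veins, and Egfl7, a secreted endothelial factor, were lower on both overexpression arrays by 1.02 and 0.64 on the log2 scale. Ly6c1, which brain endothelium shares with monocytes, overlapped, with 4.04 and 3.99 in overexpression against 4.24 and 3.57 in wild type. The second probes of Ly6c1 and Ocln gave differences of 0.83 and 0.56, against 0.11 and -0.20 for the brightest, so these genes are uncertain.

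The mural genes were led by Myh11, which had levels of -4.05 and -4.05 in overexpression, against -2.06 and -2.31 in wild type, a 3.64-fold lower signal with no spot marked (-1.86 ± 0.24, adjusted p = 0.0194). Acta2, smooth muscle actin, had levels of 0.56 and 0.56 in overexpression, against 1.66 and 1.81 in wild type. Des had levels of -4.18 and -4.50 in overexpression, against -3.13 and -2.96 in wild type. Both fell with all spots kept, Acta2 by 1.17 ± 0.22 (adjusted p = 0.0455) and Des by 1.30 ± 0.24 (adjusted p = 0.0426) on the log2 scale, and neither was called with marked spots left out (adjusted p = 0.0933 and 0.053). Tagln, the actin-binding protein transgelin, had levels of 1.94 and 1.53 in overexpression, against 2.73 and 2.46 in wild type (-0.86 ± 0.27, adjusted p = 0.138).

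Among pericyte genes, Kcnj8 and Abcc9, which encode the pore and the regulatory subunit of a potassium channel of pericytes and lie beside each other on chromosome 6, each had a difference of -0.98 (SE 0.26 and 0.33, adjusted p = 0.101 and 0.162). Rgs5, a regulator of G-protein signalling typical of pericytes, had levels of -3.56 and -3.55 in overexpression, against -2.79 and -2.59 in wild type (-0.87 ± 0.24, adjusted p = 0.111). These 3 genes were lower on both overexpression arrays. Notch3, the Notch receptor of mural cells, had a difference of -0.99 ± 0.23 with all spots kept (adjusted p = 0.0714). The corresponding value was -0.59 for Cspg4, the proteoglycan NG2, -0.55 for Pdgfrb, the receptor through which pericytes are recruited, and -0.69 for Vtn, the matrix protein vitronectin. Anpep, aminopeptidase N, was the mural gene whose groups overlapped (difference -0.34 ± 0.34, adjusted p = 0.611). In all, both overexpression arrays lay below both wild type arrays for 11 of 12 mural and 15 of 21 endothelial genes with all spots kept, a pattern met by 33.8% of all genes on this slide. With marked spots left out it was 11 of the 15 members measured on all 4 arrays, against 35.1% of all genes.

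**Figure D1:**
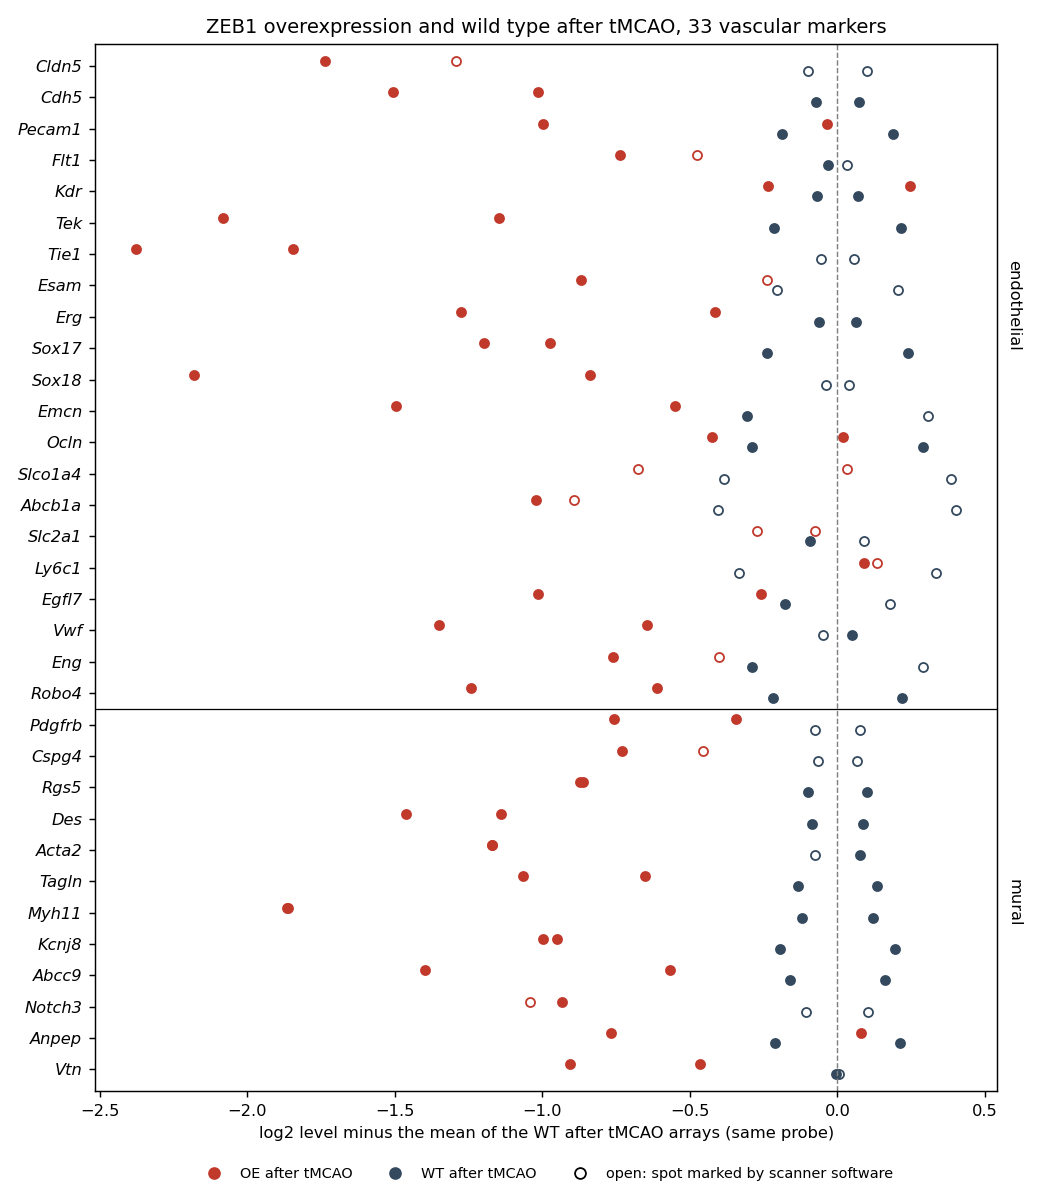
Each gene's log2 level minus the mean of its wild type arrays after tMCAO, for the 33 genes with every spot kept. Red points are the 2 overexpression arrays and dark points the 2 wild type arrays, with open points for marked spots and coinciding points drawn over each other (Acta2, Myh11). For 26 genes both red points lie left of both dark points, and for Pecam1, Kdr, Ocln, Slco1a4, Slc2a1, Ly6c1 and Anpep they do not.

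The number called in this comparison depended on single arrays. Without replicate 1 or replicate 2 of wild type it was 0, and without either overexpression array it was 3. With all spots kept it was 0 without replicate 1 of wild type and 11 without replicate 1 of overexpression. Data simulated on these arrays, with changes of 1 and 3 log2 units, led to the recovery of 8% and 100% of changed genes. The changed genes were drawn only from genes with an unmarked value on every array of the slide. These rates may therefore be too high for members with marked spots.

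Genes of related lists differed to varying degrees. Over all genes with marked spots left out, 58% were below 0, 0.748% were called lower and 1.59% higher. Of 8 tested genes in a further list of mural and contractile genes, 8 had a difference below 0 (median -0.96), and Foxs1, a forkhead factor of pericytes, fell by 1.64 ± 0.26 (adjusted p = 0.0313). Of 15 further genes of endothelial surface and identity, 13 were below 0 (median -0.83) and 0 were called. Barrier and transport genes (median -0.18, 5 tested), angiogenic ligands and receptors (-0.09, 9 tested) and basement membrane genes (-0.31, 8 tested) held no call. For other cell types the medians were -0.03 for microglia, 0.05 for astrocytes, -0.54 for fibroblasts, -0.55 for oligodendrocytes, -0.45 for neurons and 0.61 for lymphocytes, with no call in these lists. Lists with few tested genes had medians of 0.62 for adhesion molecules of inflamed endothelium and 0.29 for epithelial and ependymal cells. The erythroid value of -0.40 was that of Slc4a1 alone. With all spots kept, the mean erythroid level overlapped between the groups, with 1.19 and 2.07 in overexpression against 1.84 and 1.61 in wild type. The neutrophil median of 1.05 rested on Elane and 1 other gene, and Elane rose by 2.01 ± 0.37 (adjusted p = 0.0463). The mean fibroblast level was 0.26 and 0.15 in overexpression, against 0.47 and 0.71 in wild type, and the mean oligodendrocyte level was 0.73 and 0.92 in overexpression, against 1.41 and 1.31 in wild type. Their part in the result was not tested.

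The next comparison asks how knock-down microglia differed after and before tMCAO, and it has no wild type pair on its slide, so it does not separate the knock-down from the occlusion. Vascular genes were mostly higher after tMCAO. With marked spots left out, 9 of 26 members tested rose and 0 fell, against 11.1% of all 24646 genes called higher and 7.03% called lower. They were Tie1, Vwf, Pecam1, Emcn, Sox18, Cldn5 and Egfl7 of the endothelium and Tagln and Pdgfrb of mural cells. With every spot kept, 13 of 32 rose, against 10.1% of all 30525 genes, with Cdh5, Esam, Eng, Ly6c1 and Des added and Egfl7 no longer called (adjusted p = 0.052). With marked spots left out, 20 of 26 differences were above 0, against 53% over all genes, and the median was 0.67 over members and 0.04 over all genes.

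The endothelial genes with the clearest shifts came from several roles. Tie1 had levels of -2.27 and -2.78 in knock-down after tMCAO, against -4.56 and -4.65 in knock-down before, a 4.23-fold higher signal (2.08 ± 0.28, adjusted p = 0.00906). Vwf had levels of 2.32 and 2.08 after tMCAO, against 0.35 and 0.59 before, and was 3.31-fold higher (1.73 ± 0.22, adjusted p = 0.00756). All arrays after tMCAO lay above those before by more than 1 log2 unit for both genes. Pecam1 had levels of -1.61 and -1.51 after tMCAO, against -2.99 and -3.09 before (1.48 ± 0.15, adjusted p = 0.00498). Emcn had levels of 0.49 and 0.57 after tMCAO, against -0.77 and -0.73 before (1.28 ± 0.16, adjusted p = 0.00741). For both genes the replicates lay close together and the groups far apart. Cldn5 had levels of 2.20 and 2.62 after tMCAO, against 1.39 and 1.69 before (0.87 ± 0.20, adjusted p = 0.0427). Cdh5 had -1.51 and -1.51 after tMCAO, against -2.79 and -2.52 before. Cdh5 could be tested only with all spots kept, since both spots after tMCAO were marked, and then rose by 1.14 ± 0.16 (adjusted p = 0.00871).

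Other endothelial genes rose as well. Sox18 had levels of -0.36 and -0.49 after tMCAO, against -1.33 and -1.27 before, and its main estimate of 0.94 ± 0.22 (adjusted p = 0.0453) rests on 1 array after tMCAO because the other spot was marked. Egfl7 rose by 0.57 ± 0.14 (adjusted p = 0.0402). With all spots kept, Esam rose by 1.17 ± 0.20, Eng by 0.98 ± 0.24 and Ly6c1 by 0.72 ± 0.16 (adjusted p = 0.0171, 0.0399 and 0.0319). Robo4, Tek and Sox17 were higher on both arrays after tMCAO by 0.74, 0.56 and 0.37 without being called.

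The receptors Flt1 and Kdr, the 3 transporters and Ocln were not called. Flt1 had levels of 0.85 and 0.59 after tMCAO, against 1.12 and 1.25 before, lower on both arrays (-0.47 ± 0.19, adjusted p = 0.127). Kdr overlapped, with -0.76 and -1.61 after tMCAO against -1.60 and -1.17 before. Abcb1a, with -0.36 and -0.04 after tMCAO against 0.27 and 0.17 before, was also lower on both arrays. Slc2a1, Slco1a4 and Ocln overlapped between the groups. The interval of the difference, all spots kept, was -0.36 to 0.69 for Slc2a1, -1.12 to 0.68 for Slco1a4 and -0.48 to 0.44 for Ocln.

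Mural genes were led by Tagln, with levels of 2.36 and 2.90 after tMCAO, against 0.43 and 0.61 before, a 4.34-fold higher signal (2.12 ± 0.23, adjusted p = 0.00593). Pdgfrb had levels of 0.70 and 0.23 after tMCAO, against -0.48 and -0.27 before (0.84 ± 0.19, adjusted p = 0.0315). Des had levels of -3.06 and -3.65 after tMCAO, against -4.50 and -4.31 before, and rose with all spots kept (1.05 ± 0.24, adjusted p = 0.0347). Acta2 had levels of 3.29 and 3.25 after tMCAO, against 2.79 and 2.75 before, close to the threshold with all spots kept (0.50 ± 0.13, adjusted p = 0.0519). Myh11 stood apart from these contractile genes, with -2.84 and -2.76 after tMCAO against -2.56 and -2.67 before. Its interval was -0.83 to 0.47, and its other well measured probe had a difference of 0.31. Rgs5 (0.16 and 0.25 after, 0.10 and -0.24 before) and Vtn (2.16 and 1.81 after, 1.84 and 1.99 before) were close between the groups.

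**Figure D2:**
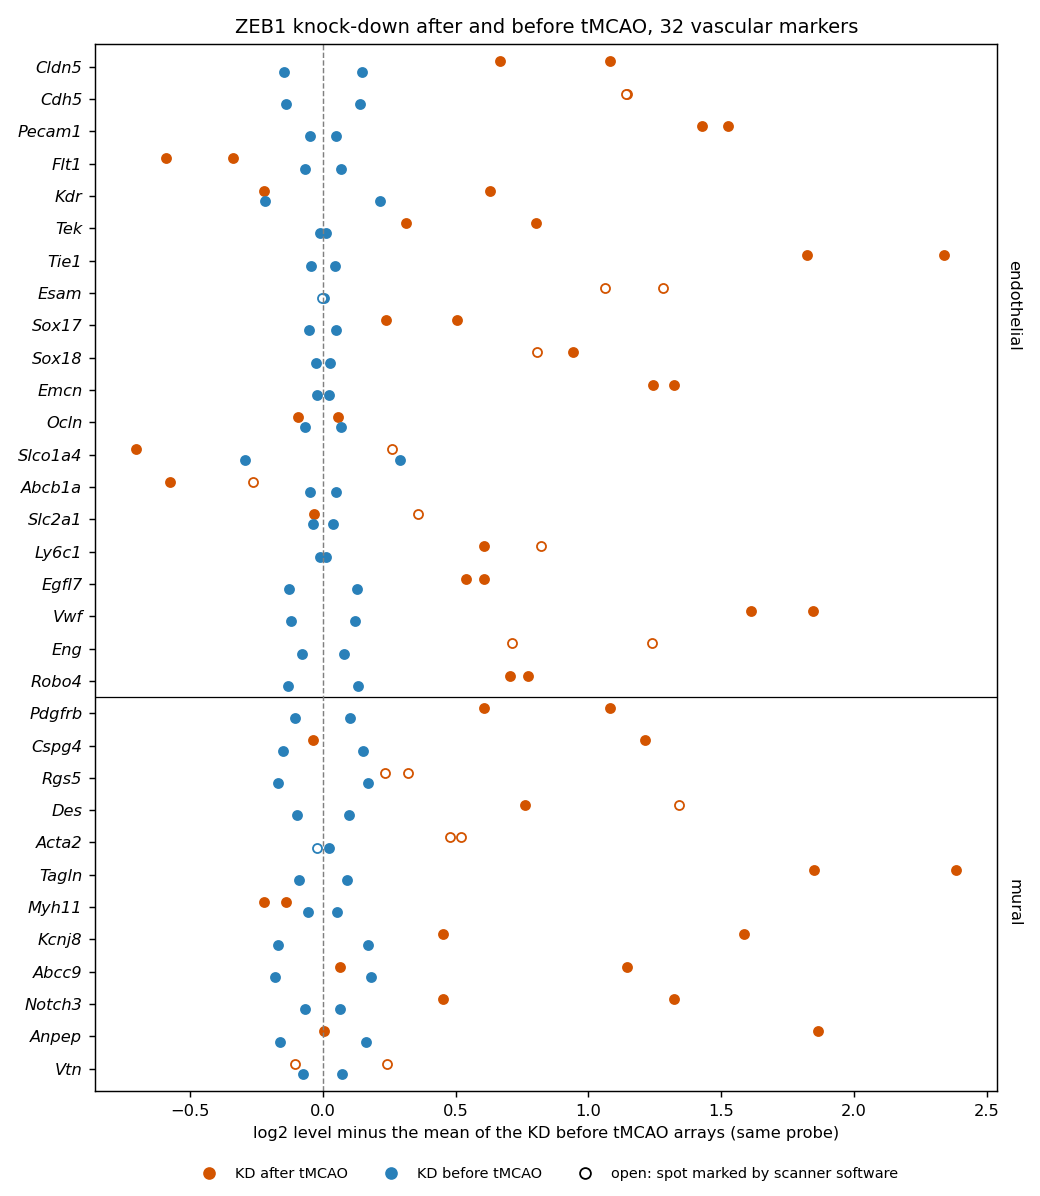
Each gene's log2 level minus the mean of its knock-down arrays before tMCAO, for the 32 genes measured on the 8-array slide with every spot kept. Orange points are the 2 knock-down arrays after tMCAO and blue points the 2 arrays before, with open points for marked spots. For 21 genes both orange points lie right of both blue points, while Flt1, Abcb1a and Myh11 lie left of them.

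The arrays of knock-down after tMCAO differed from each other for several mural genes. Replicate 1 exceeded replicate 2 for 9 of 12 mural genes, by a median of 0.53, and by more than 1 log2 unit for Cspg4, Kcnj8, Abcc9 and Anpep. Over all 30525 genes, replicate 1 was higher for 48.3%, by a median of -0.02, and by more than 1 log2 unit for 8.57%. For endothelial genes the median gap was 0.04, and Rgs5 was lower on replicate 1 (0.16 against 0.25). Kcnj8 had levels of 0.10 and -1.03 after tMCAO, against -1.32 and -1.66 before (1.02 ± 0.40, adjusted p = 0.118). Notch3 had 0.07 and -0.80 after tMCAO, against -1.32 and -1.19 before (0.89 ± 0.31, adjusted p = 0.0946). Abcc9, Cspg4 and Anpep were higher on replicate 1 only, and replicate 2 lay between the values before tMCAO. In the other groups of this slide the largest gap of any mural gene was 0.76.

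**Figure D3:**
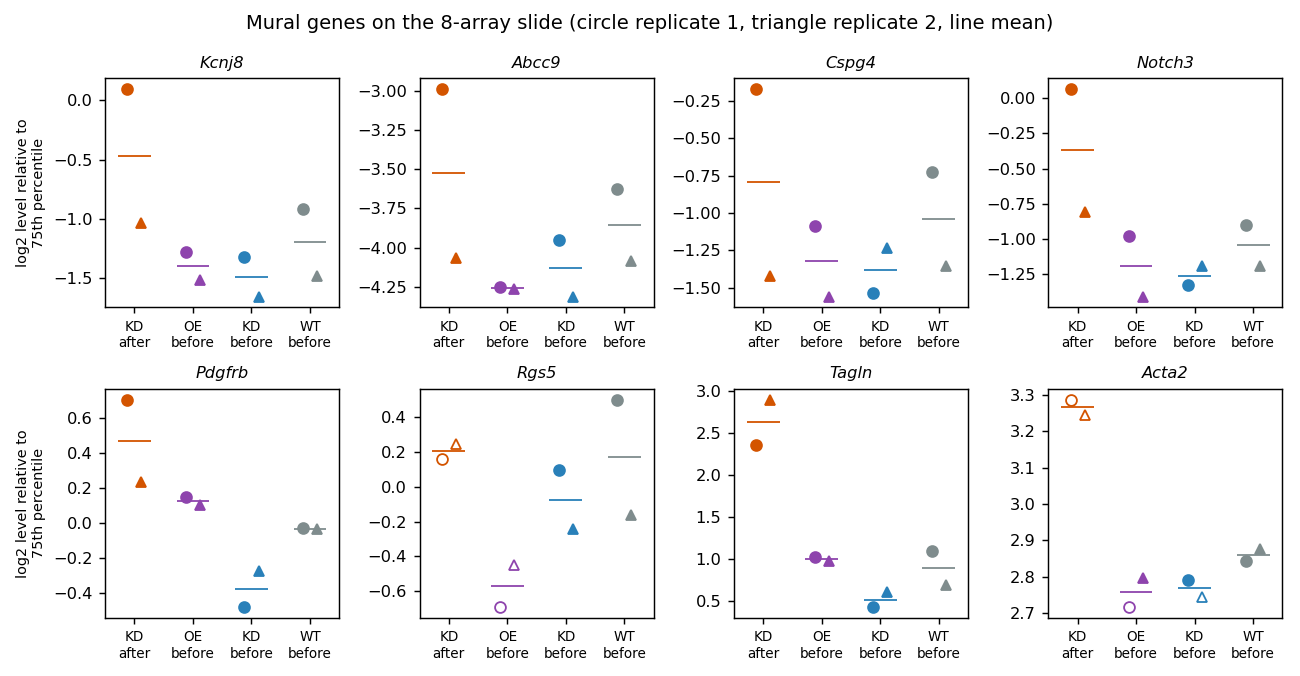
Log2 level relative to the array's 75th percentile for 8 mural genes on the 8-array slide, in 4 groups from left to right, with circles for replicate 1, triangles for replicate 2, lines for the mean and open symbols for marked spots. Kcnj8, Abcc9, Cspg4 and Notch3 are high on replicate 1 of knock-down after tMCAO, while Tagln and Acta2 are high on both replicates.

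Set against all 6 arrays before tMCAO, both knock-down arrays after tMCAO were higher for 18 of 32 genes, 13 endothelial and 5 mural. Both arrays were lower for Flt1 and, on its brightest probe, for Myh11. Over all genes of the slide the shares were 14.7% higher and 16.1% lower. Against knock-down before tMCAO alone, both arrays were higher for 21 of 32 members and lower for 3, against 33.6% and 28.4% of all genes. Leaving out either array of knock-down before tMCAO left 4 members called, and with all spots kept 2 without its replicate 1, 4 without its replicate 2 and 16 without replicate 2 of knock-down after tMCAO. Scaling to the median of each array in place of the 75th percentile moved the difference of all genes to -0.23 and the median of members to 0.41, and Pdgfrb, Cldn5, Sox18 and Egfl7 were then not called (adjusted p = 0.0793, 0.156, 0.145 and 0.32). In data simulated on these arrays, 34% of changes of 1 log2 unit and 98% of changes of 3 were recovered, again only among genes with an unmarked value on every array. The simulation changed 100 genes of each size among 24646, whereas 2728 genes were called higher in the data. The adjusted p depends on how many genes change, so these rates need not hold for this comparison.

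Basement membrane genes had the largest share of calls among the further vascular lists. Of 6 tested, 5 rose with marked spots left out, and of 10 tested, 8 rose with all spots kept. Over all genes, 11.1% were called higher and 7.03% lower with marked spots left out, and 10.1% higher with all spots kept. Lists with 1 or few calls below are to be read beside these shares. Lama4, a laminin chain of vessels, rose by 1.65 ± 0.19, Lama5 by 1.22 ± 0.13, Nid2 by 1.36 ± 0.34, and the perlecan gene Hspg2 by 1.32 ± 0.21 on 1 array after tMCAO (adjusted p = 0.00629, 0.00597, 0.042 and 0.0272). Of 17 further genes of endothelial surface and identity, 6 rose, among them Clec14a (2.45 ± 0.23), Fli1 (1.87 ± 0.19), Icam2 (1.23 ± 0.19) and Sox7 (1.06 ± 0.15), with adjusted p = 0.0065, 0.00704, 0.0127 and 0.00977. Fli1 and Clec14a rest on 1 array after tMCAO, and Fli1 and Icam2 are also expressed by leukocytes. Of 12 further mural genes, 4 rose (Foxs1, Cd248, Cnn1 and Higd1b). Barrier and transport genes had 1 call, the proteoglycan gene Spock2, which fell by 0.74 ± 0.17 (adjusted p = 0.0332). Angiogenic genes had 1 in each direction, Jag1 higher and Notch1 lower, and 0 higher with all spots kept.

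Markers of other cells moved in the same comparison, in which 11.1% of all genes were called higher and 7.03% lower. Of 5 fibroblast genes tested, 3 rose, Col3a1 and Lum by 3.51 each and Dcn by 1.33, and the mean fibroblast level was 1.53 and 1.30 in knock-down after tMCAO, against -0.19 and 0.27 in knock-down before. Of 8 microglia genes tested, 4 rose (Aif1, Trem2, Cx3cr1 and Olfml3), with a mean level of 1.84 and 1.55 in knock-down after tMCAO, against 0.87 and 0.90 in knock-down before. Gfap of astrocytes rose by 2.10 ± 0.23 and Mog of oligodendrocytes by 0.99 ± 0.21. The neuronal genes Slc17a7 and Nefm, the erythroid genes Slc4a1 and Alas2 and the lymphocyte genes Cd3e and Cd4 fell with marked spots left out. Nefm had adjusted p = 0.0786 with all spots kept. The erythroid and lymphocyte lists were dim. In knock-down after tMCAO, 3 and 2 of 6 erythroid genes were well above background, against 4 and 4 before. For lymphocyte genes it was 5 and 1 of 8 after, against 5 and 4 before. The mean lymphocyte level was -4.62 and -6.19 after, against -4.69 and -4.36 before. Icam1, an adhesion molecule of inflamed endothelium and of leukocytes, rose by 2.08 ± 0.27 against 1 array before tMCAO (adjusted p = 0.0125) and by 1.59 ± 0.35 with all spots kept (adjusted p = 0.0315). Neutrophil and epithelial and ependymal lists had medians of -0.28 and -0.42 and no call. The part of these shifts in the vascular result was not tested.

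**Figure D4:**
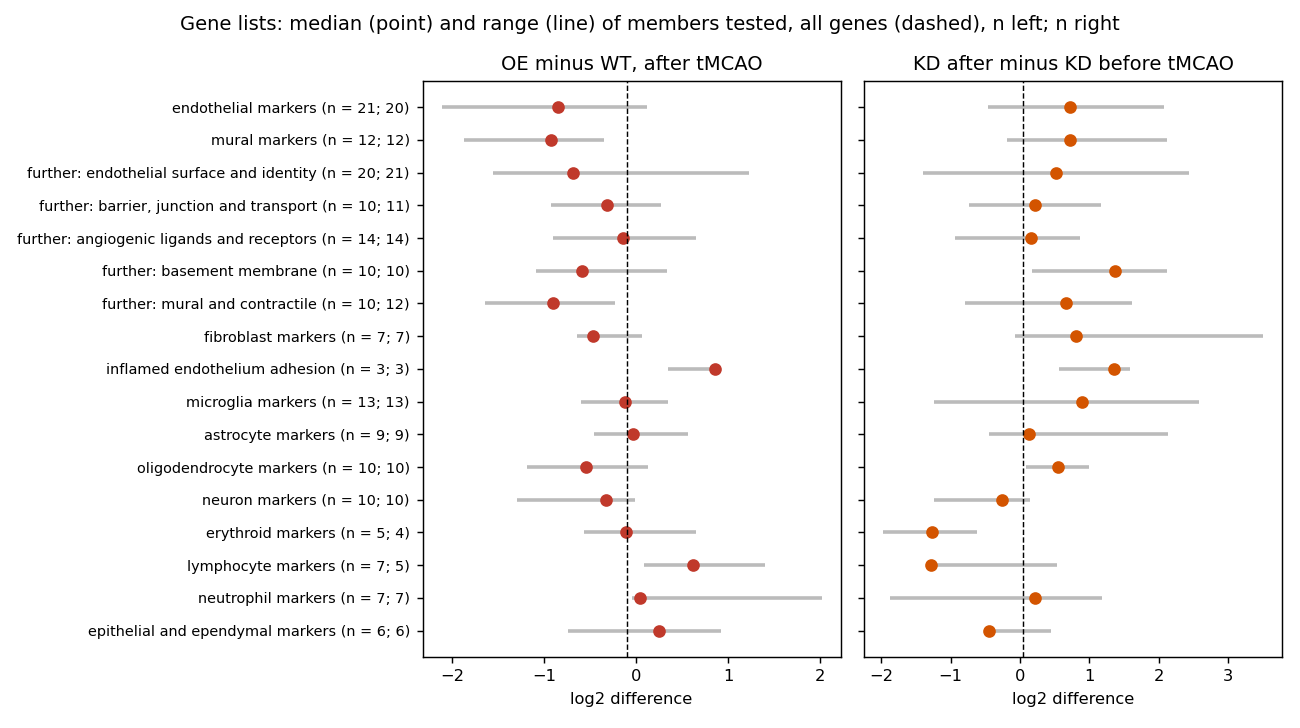
Median log2 difference (point) and range (line) of each gene list with all spots kept, for overexpression minus wild type after tMCAO on the left and knock-down after minus before tMCAO on the right, with a dashed line at the median of all genes. The endothelial and mural medians are -0.85 and -0.92 on the left and 0.73 and 0.72 on the right, and the basement membrane median is 1.37 on the right.

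These comparisons share no array, so the members' values can be set side by side. With all spots kept, 26 members were lower on both overexpression arrays after tMCAO and 21 were higher on both knock-down arrays after tMCAO, and 19 were in both sets. Of the 32 members measured on both slides, 25 (78.1%) were in the lower set and 21 (65.6%) in the higher set, so the shared genes were 76% of the lower and 90.5% of the higher set. Since most members were in each set, much of this overlap follows from the sizes of the sets. Over 19769 genes measured on both slides the shares were 28.6% of the lower and 28.1% of the higher set, with 32.4% and 32.9% of genes in them. Tie1, Cldn5 and Des were called in both comparisons with all spots kept, lower in overexpression than in wild type and higher in knock-down after than before tMCAO. Myh11 and Flt1 were lower in overexpression after tMCAO and lower in knock-down after tMCAO too, and Abcb1a was the third such gene. For Myh11 in knock-down this holds only for the brightest probe, since its other well measured probe had a difference of 0.31. Pecam1 and Ly6c1 were higher in knock-down after tMCAO with overlapping groups in the overexpression comparison. Kdr, Ocln, Slco1a4, Slc2a1 and Anpep were in neither set.

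**Figure D5:**
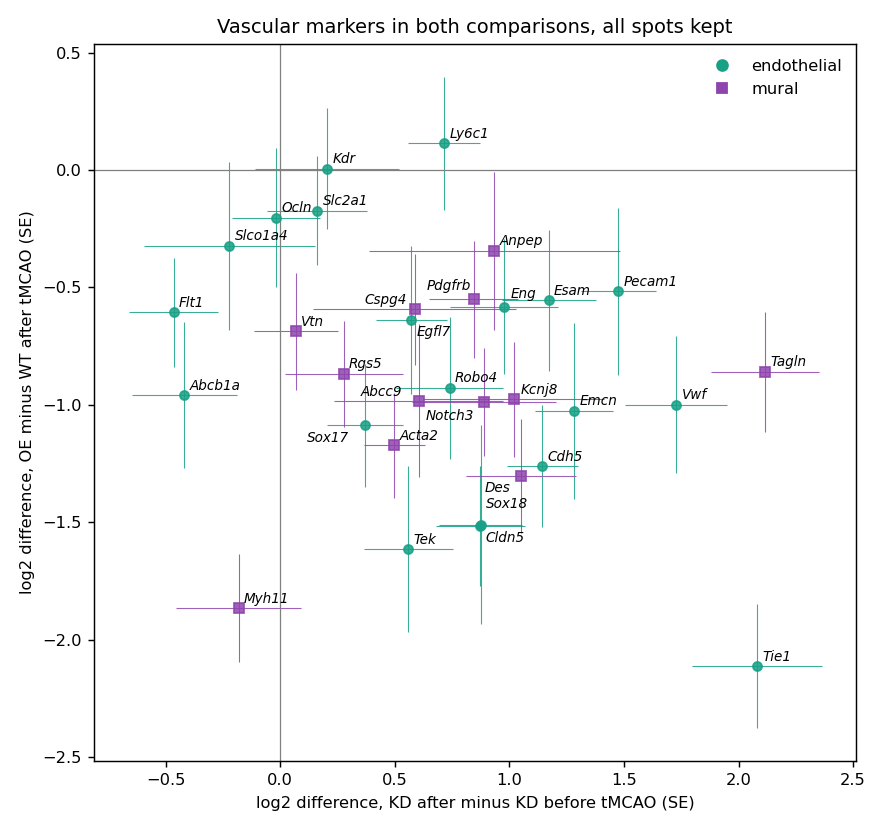
Log2 difference with its standard error for overexpression minus wild type after tMCAO (vertical axis) against knock-down after minus before tMCAO (horizontal axis), all spots kept, 32 genes. Most circles (endothelial) and squares (mural) lie in the lower right, with Tie1 lowest, Tagln, Tie1 and Vwf furthest to the right, and Myh11, Flt1 and Abcb1a in the lower left.

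Before tMCAO no member was called between genotypes. Overexpression differed from wild type by a median of -0.16 over 28 members tested (all genes -0.01), which was 0.01 without replicate 1 of wild type, and 0 were called by limma, as were 0 of 25162 genes. At an unadjusted p under 0.05 there were 2 members, Tek and Ocln, against 11.6% of all genes. Tek had levels of -3.67 and -3.71 in overexpression, against -2.99 and -3.14 in wild type (-0.63 ± 0.18, adjusted p = 0.32). Knock-down differed from wild type by a median of -0.23 over 32 members (all genes -0.07), with 0 called and 3 at an unadjusted p under 0.05 (Des, Pecam1 and Tie1), against 8.76% of all genes. Tie1 had levels of -4.56 and -4.65 in knock-down, against -3.66 and -4.18 in wild type (-0.68 ± 0.28, adjusted p = 0.565). Overexpression differed from knock-down by a median of 0.06 over 28 members (all genes 0.10), which was -0.05 when arrays were scaled to their median or replicate 1 of overexpression was left out and -0.03 without replicate 1 of knock-down, with 0 called and 3 at an unadjusted p under 0.05 (Pecam1, Pdgfrb and Tek), against 14.8% of all genes. These 3 comparisons share arrays, and their values are not independent of each other.

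Whether overexpression differed from wild type by another amount after tMCAO than before it was tested as an interaction on the probes that both designs share. Of 12 members tested, 11 had a value below 0, against 55.1% of all genes, with a median of -0.69 (all genes -0.09), and 0 were called, against 1.18% of all genes. At an unadjusted p under 0.05 there were 4, Des, Myh11, Tagln and Acta2, against 19.5% of all genes. Tie1 and Cldn5 could not be tested there because of marked spots. Myh11 had an interaction of -1.50 ± 0.33 and Des of -1.17 ± 0.25 (adjusted p = 0.0765 and 0.0736). Slide and tMCAO coincide in this test, so a difference between slides in how a probe responds cannot be told apart from the occlusion. With all spots kept 24 members could be tested, 20 were below 0 and 0 were called (0.478% of all genes were), and the lowest endothelial values were those of Tie1 (-1.72, adjusted p = 0.0902), Sox18 (-1.52, adjusted p = 0.185) and Cldn5 (-1.45, adjusted p = 0.0737).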

How the data were processed

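RNA of CX3CR1-sorted microglia was hybridised to Agilent one-colour arrays, 12 arrays in 6 groups. The deposited scanner files hold a processed signal, an intensity after background subtraction by Feature Extraction 11.5.1.1 per the file headers (the submitters' processing notes name 9.1). The deposited value tables hold log2 values made by the authors, with scale and centring not described in the sources used here. The 75th percentile of each column was 0, the centring also used for the levels here. The values for knock-down after tMCAO in those tables correspond to the scanner file of the other replicate, and they were used only as an alternative. Probe names and spot marks are a unit of the kind "other" in the deposited files.

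Each level was log2 of the processed intensity minus the array's 75th percentile. Control spots were left out, as were spots marked non-uniform or outlying. Probes were named by accession through the RefSeq table of GRCm38.p6. It named 26756 of 55681 probes (48.1%) on the 4-array slide and 33762 of 56605 (59.6%) on the 8-array slide, and unnamed accessions stayed in the fits. The brightest probe stood for a gene. Differences were fitted over all groups of a slide by the lmFit and eBayes functions of limma 3.58.1 (R 4.3.3), in a two-sided test with Benjamini-Hochberg adjustment over all genes kept. The interaction was fitted in the same way over the arrays of both slides, which then shared their estimate of the spread. Errors are standard errors with 95% intervals. The precision is limited by the number of arrays. Replicates correlated at 0.975 to 0.990 and held no identical values. The fit was tested on simulated data.

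The 33 genes and the further lists were chosen with earlier results of these data known. All 33 could be named, and of the further lists only genes with an adjusted p under 0.05, or the 3 smallest p-values. Alternatives covered marked spots, scaling (quantile, median), normexp background, the dim-probe filter, the value tables, probe averaging, trend and robust fitting, a replicate block, the groups in the fit, and each array left out. The files lack a mean signal, so normexp used median signals. Replicate numbers were not shown to pair samples.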

Additional observations from a re-analysis of the deposited data

How the results depend on the processing

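Members called in overexpression against wild type after tMCAO numbered 1, and 5 with marked spots kept, 5 from the value tables, 5 with trend and robust fitting, 2 among probes above background on every array, 0 with no dim filter, 0 with the mean of a gene's probes (1 when each probe was centred first, chosen after seeing the data), 3 with marked spots kept and quantile scaling, and 4 with marked spots kept and a replicate block. The replicate block alone gave 2. Leaving out 1 array gave 0 to 3, and 0 to 11 with marked spots kept. In knock-down after against before tMCAO they numbered 9, and 5 with no dim filter, 5 when only the compared groups were fitted, and 14 with marked spots kept and quantile scaling. Leaving out 1 array gave 4 to 12, and 2 to 16 with marked spots kept. The interaction had 0, and 1 (Des) with quantile scaling or above background everywhere, and 0 to 1 when 1 array was left out with marked spots kept. Before tMCAO the count was 0 under every setting run. The members' medians there, which were not tested, did change sign, to -0.05 with median scaling and -0.05 to 0.18 with 1 array left out for overexpression against knock-down (0.06 otherwise), and to 0.01 without replicate 1 of wild type for overexpression against wild type. No member called in the main tests changed sign. The cause of these shifts was not tested.

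Genes called after tMCAO in overexpression against wild type numbered 516, and 895 with marked spots kept, 329 with quantile and 332 with median scaling, 0 with no dim filter, 777 from the value tables, 0 with the mean of probes, 970 with trend and robust fitting, 1017 with marked spots kept and a replicate block, 39 to 1103 with 1 array left out and 160 to 2104 with marked spots kept as well. For knock-down they numbered 4460, and 7442 with normexp, 2118 with no dim filter, 2310 with only the compared groups, 825 to 3789 with 1 array left out and 769 to 4685 with marked spots kept as well. The interaction had 185, and 106 with marked spots kept, 38 with normexp, 32 with no dim filter, 100 from the value tables, 351 with the mean of probes, 68 with the block, 15 with marked spots kept and the block, 0 to 268 with 1 array left out and 5 to 238 with marked spots kept as well. Before tMCAO, 0 genes were called in each comparison, and the mean of probes gave 518 for overexpression against wild type and 549 for overexpression against knock-down. Each was 0 once probes were centred, since leaving out a marked spot shifts a gene's mean. Quantile scaling gave 6, 1 and 6 and median scaling 1, 1 and 14 for overexpression against wild type, knock-down against wild type and overexpression against knock-down, and marked spots kept with quantile scaling gave 5 for both overexpression comparisons. Same-numbered arrays deviated together by -0.19 to 0.26. Fitting only the compared groups was not run for the interaction, which needs 4 groups. Normexp moved the median of all genes to -0.27 for overexpression against wild type after tMCAO and to 0.21 for knock-down after against before tMCAO.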
